A study of Canis lupus familiaris with 5 samples.

Results

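Blood lineage transcription factors are nuclear proteins that set which blood cell type a progenitor becomes. The 10 factors described here are SPI1, EBF1, PAX5, BCL11A, TCF4, LEF1, TCF7, GATA3, LMO2 and HHEX, and each was taken with every probe set that the array annotation gives to its symbol. All 10 had at least 1 probe set, 21 of the 42924 probe sets on the array in all (controls left out). Their RNA was measured on Affymetrix canine arrays in 5 untreated lymphoid tumor cell lines of the dog, grown in RPMI with 10% FBS, 1 array per line. By their labels, 17-71 came from a B-lymphoid malignancy and GL-1 from a B-cell leukemia (B-labelled, n = 2). CL-1 is labelled a primitive alpha/beta T-cell leukemia, CLGL-90 an LGL leukemia of T cells and CLL-1390 a primitive T-cell leukemia (T-labelled, n = 3). Each line is a single tumor line measured once, so a spread within a group is the spread between different lines, single lines have no error of their own, and neighbours in an order of lines cannot be told apart by a test.

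As background, these factors work in sequence and against one another. PU.1, the product of SPI1, is needed for myeloid and early B cells and is shut off as T cells form. EBF1 and PAX5 install and lock the B-cell program, helped by BCL11A and by the E protein encoded by TCF4. GATA3 and the related HMG-box proteins TCF7 (TCF-1) and LEF1 drive the early T-cell program. LMO2, a bridging protein of stem-cell transcription complexes, and the homeobox factor HHEX are active in progenitors, and LMO2 is a known oncogene of T-cell leukemia. TCF4 here is the E protein gene, not the Wnt effector TCF7L2 that is also sometimes called TCF4.

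The values are log2 intensities. On each array, 59 control probe sets for sequences that dogs lack gave a guide to background. Their medians were 4.07 to 4.29 and their highest values 6.39 to 6.76. Exceeding them is not by itself proof of a transcript. The lineage labels were only partly borne out by defining markers. Among B-cell markers, CD79A stood above the highest control in GL-1 alone (7.83) and CD79B in no line. MS4A1 passed it in CLGL-90 alone, and only just (6.79 against 6.76), so 17-71 had none of the 3 measured. Of 5 T-cell markers, 3 stood above the highest control in CL-1, 5 in CLGL-90 and 4 in CLL-1390 (T-labelled), and 2 in 17-71 and 4 in GL-1 (B-labelled). CD3D and CD3G were at 5.44 and 5.34 in CL-1 and at 9.78 and 10.01 in GL-1, whereas CD247 was at 11.16 in CL-1 and 5.85 in GL-1. CD3E and CD5 were above the control in every line and are the 2 counted in 17-71. CD5 ranged over only 0.52, so its passing does not tell the lines apart.

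Among the 10 factors, 8 had a probe set that ranged over log2 2 or more across the 5 lines. These patterns mostly crossed the B and T labels. PAX5 and TCF7 varied little, their widest range (0.81) being near the median range of all tested probe sets (0.77). Of the 21 probe sets, 19 reached log2 5 on at least 2 arrays and were tested, and 11 of these 19 ranged over log2 2 or more across the 5 lines. In the whole array 14.2% of the tested probe sets did. For 3 of the 19, all of BCL11A, the highest line stood at least log2 2 above the next (2.64% of all), and for 1, that of TCF4, the lowest line as far below the next (1.11%). Both LEF1 probe sets and the third of BCL11A passed the filter only through the lines where they were high, so these counts describe the probe sets and support nothing further.

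**Figure D1:**
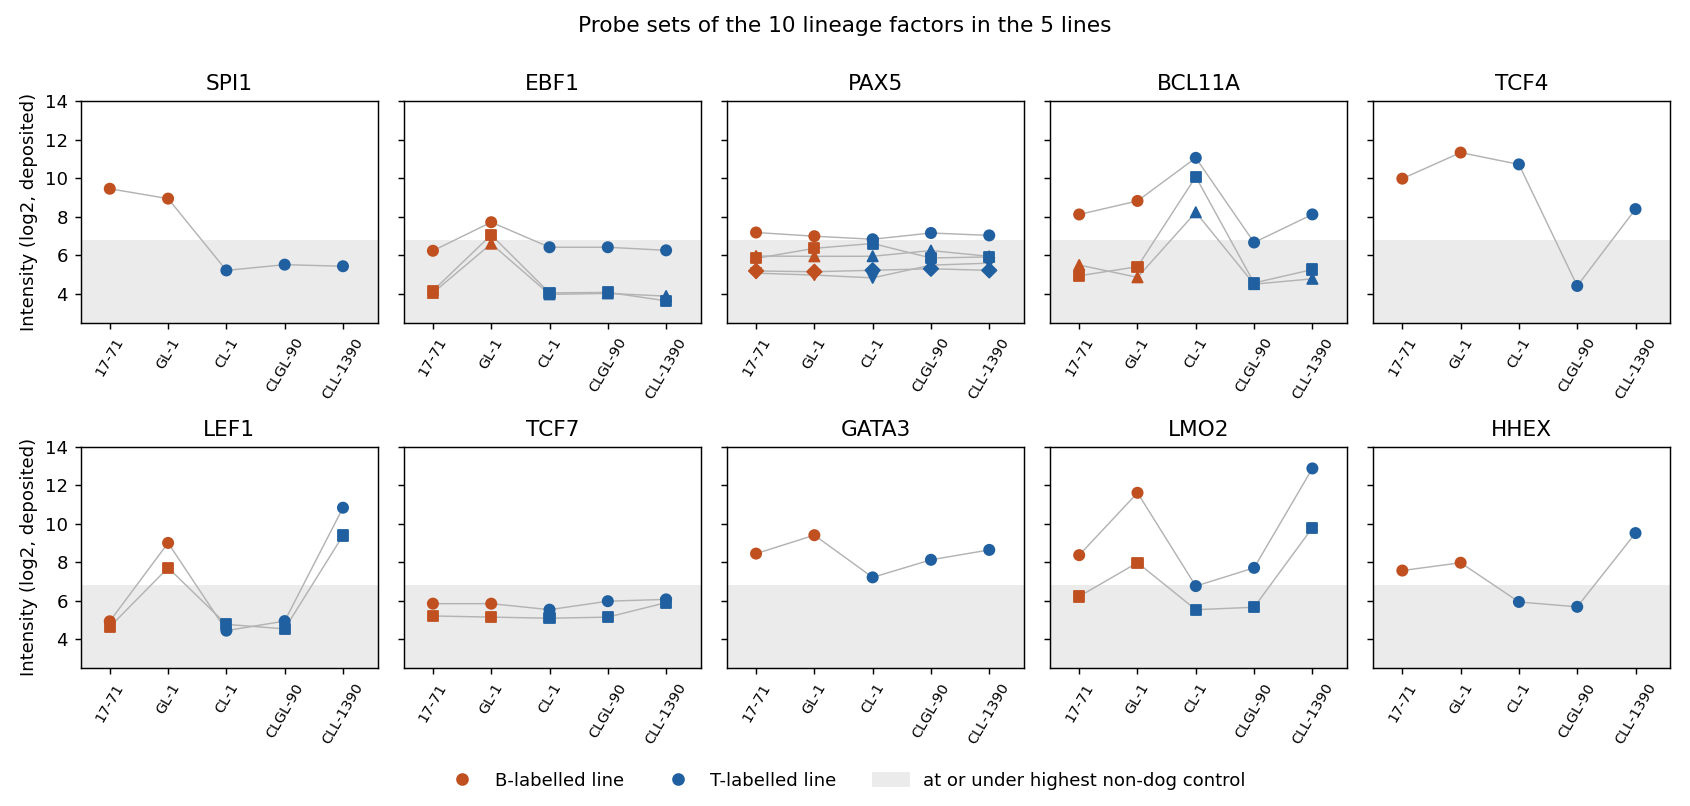
Deposited log2 intensity (vertical axis) of every probe set of the 10 factors in the 5 lines (horizontal axis); each marker shape is 1 probe set, thin lines join its values, and the grey band reaches to 6.76, the highest non-dog control on any array. SPI1 leaves the band in both B-labelled lines only, LEF1 in GL-1 and CLL-1390 only, and TCF7 in no line.

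Between the label groups, 0 of the 19 tested probe sets passed in limma with Benjamini-Hochberg adjustment over all 36661 tested probe sets, where 5 probe sets passed (0.0136%), and 1 of the 19, that of SPI1, had an unadjusted p under 0.05 (3.72% of all did). The group values did not overlap for 1 of 19 with the B-labelled lines higher (SPI1; 6.58% of all tested probe sets) and for 1 of 19 with the T-labelled lines higher, a PAX5 probe set at background (8.29% of all). The median difference, B-labelled minus T-labelled lines, was -0.01 over the 19 and -0.01 over all tested probe sets.

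**Figure D2:**
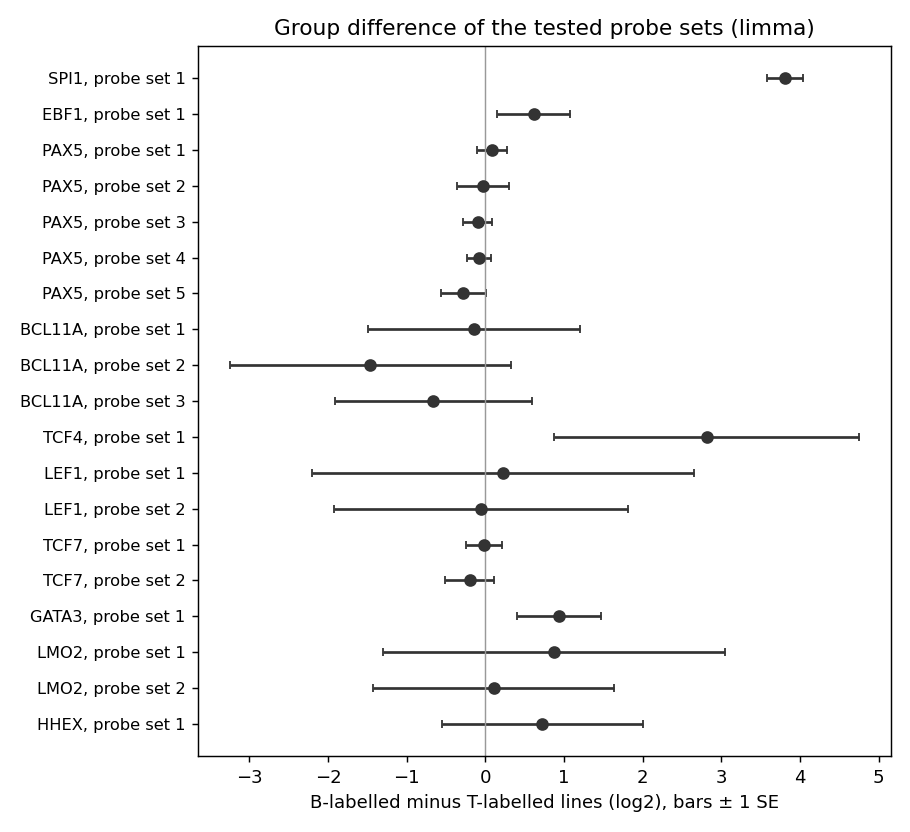
Difference between the mean of the 2 B-labelled and the mean of the 3 T-labelled lines on the log2 scale (horizontal axis) for the 19 tested probe sets, numbered within a gene from the highest mean down; bars are 1 standard error from limma. SPI1 stands at 3.81 with a short bar, and the long bars of LEF1, LMO2, BCL11A and TCF4 come with lines of 1 label that differ among themselves.

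SPI1 was the one factor that followed the labels. Its single probe set read 9.45 in 17-71 and 8.94 in GL-1, and 5.21 in CL-1, 5.51 in CLGL-90 and 5.43 in CLL-1390. Both B-labelled lines lay far above all T-labelled lines with no overlap, the lower B-labelled value being 10.8 times the highest T-labelled one. The group means were 9.19 ± 0.36 (SD, n = 2) and 5.38 ± 0.15 (n = 3), a difference of 3.81 (SE 0.23) seen in 2 of 2 B-labelled lines. In RNA from whole cultures, fewer cells with a transcript and less of it per cell cannot be told apart. The difference missed the threshold in limma, with an adjusted p = 0.0681 over probe sets and 0.0528 over 14164 genes. Adjusted over genes it passed under 5 of 14 alternatives (0.0328 to 0.363 over all 14) and over probe sets under 1 of 12 (0.0445 to 0.395). Set apart from the T-labelled lines, CLGL-90 left an adjusted p over probe sets of 0.323 in limma. All 3 T-labelled readings were within the range of the non-dog controls, which limits how far the size can be read. Their small spread (SD 0.15) also enters the standard error and the p-values. At least log2 2 above the other 3 lines in both 17-71 and GL-1, as SPI1 was, stood 0.207% of all tested probe sets.

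EBF1, the early B-cell factor that opens B-lineage genes, was highest in GL-1 by all 3 of its probe sets. The brightest read 7.71 in GL-1 against 6.23 in 17-71, 6.41 in CL-1, 6.41 in CLGL-90 and 6.25 in CLL-1390. The second read 7.06 in GL-1 against 4.16, 4.05, 4.07 and 3.64 in the same order of lines, and the third 6.60 against 4.05, 3.97, 4.02 and 3.88. All 3 thus set GL-1 apart from 17-71, the other B-labelled line, which lay with the T-labelled lines. The gap from GL-1 to the next line was 1.30, 2.90 and 2.55. The last 2 probe sets reached log2 5 on GL-1 only and were not tested, and the third stayed under the highest control of that array (6.66). Without GL-1 the brightest ranged over 0.18 in the other 4 lines. The tested probe set differed between the label groups by 0.61 (SE 0.47, unadjusted p = 0.251 in limma).

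PAX5, the factor that EBF1 works with to commit cells to the B lineage, gave no line that stood out. Its 5 probe sets ranged over 0.16 to 0.77 across the 5 lines. The brightest read 7.18 in 17-71, 6.83 in CL-1, 6.99 in GL-1, 7.15 in CLGL-90 and 7.03 in CLL-1390. GL-1, the line with the most EBF1, thus lay below 17-71, CLGL-90 and CLL-1390, within a narrow range. The brightest exceeded the highest non-dog control in all 5 lines, the second in CL-1 alone (6.61), and the remaining 3 in no line. Since no line shows that these probe sets respond, the values show neither expression of PAX5 nor its absence. The difference between the label groups was 0.08 (SE 0.19) for the brightest and ran from -0.28 to -0.03 for the others.

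BCL11A, a zinc-finger repressor needed for early B cells, was highest in CL-1, a T-labelled line, by all 3 probe sets. The brightest read 11.05 in CL-1, 8.82 in GL-1, 8.12 in CLL-1390, 8.12 in 17-71 and 6.66 in CLGL-90. The second read 10.07 in CL-1 and 4.56 to 5.41 elsewhere, and the third 8.23 in CL-1 and 4.50 to 5.49 elsewhere. CL-1 lay above the next line by 2.24, 4.67 and 2.74, and CLGL-90 was lowest in each. The probe sets disagree on the middle lines: the brightest was above the highest control in 17-71, GL-1 and CLL-1390 as well, and the other two in CL-1 alone. In all, 0.742% of tested probe sets had CL-1 at least log2 2 above every other line. The other 2 T-labelled lines lay at or below 8.12 by the brightest, and the group difference of the brightest was -0.14 (SE 1.35) and that of the second -1.46 (SE 1.79).

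TCF4, an E protein of B cells, plasmacytoid dendritic cells and progenitors, stood above the highest control in every line but CLGL-90. Its probe set read 11.33 in GL-1, 10.71 in CL-1, 9.97 in 17-71, 8.39 in CLL-1390 and 4.41 in CLGL-90. The CLGL-90 value lay near the median of the non-dog controls on that array (4.29) and 3.99 below the next line, a fold of 15.9 that depends on background. A line-specific low of at least log2 2 in CLGL-90 was found for 0.153% of all tested probe sets. The group difference was 2.81 (SE 1.94, unadjusted p = 0.209 in limma, not passing), and the T-labelled lines ranged from background to the second highest value of the 5. Leaving out CLGL-90 brought the difference to 1.10, and the range over lines from 6.92 to 2.93.

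LEF1, which partners beta-catenin and acts in early T and B progenitors, was high in GL-1 and CLL-1390 and within the range of the controls in the other 3 lines. The brighter probe set read 10.83 in CLL-1390 and 9.00 in GL-1, and 4.94 in 17-71, 4.45 in CL-1 and 4.95 in CLGL-90. The other read 9.39 and 7.71 in the same pair, and 4.64, 4.78 and 4.54. Both probe sets gave the same pair of lines, with CLL-1390 above GL-1 by 1.83 and 1.67. GL-1 lay 4.06 and 2.94 above the highest of the remaining lines. As the pair holds 1 line of each label, the label groups overlapped, with differences of 0.23 (SE 2.43) and -0.06 (SE 1.86).

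TCF7, the closest relative of LEF1 and an early marker of T-lineage commitment, did not show that pattern. Its brighter probe set read 5.54 to 6.07 and the other 5.10 to 5.90, under the highest non-dog control in every line. The second was highest in CLL-1390 (5.90, against 5.10 to 5.21 in the other 4), a gap of 0.69 within the range of the controls. No line shows that these probe sets respond, so TCF7 cannot be called absent. The differences were -0.01 (SE 0.23) and -0.20 (SE 0.31).

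GATA3, a factor needed throughout T-cell development, was above the highest non-dog control in every line, B-labelled lines included. Its probe set read 9.40 in GL-1, 8.64 in CLL-1390, 8.45 in 17-71, 8.13 in CLGL-90 and 7.21 in CL-1. The highest value was thus in a B-labelled line and the lowest in a T-labelled one, with a range of 2.19 that fell to 1.28 without CL-1. The B-labelled mean was 8.93 ± 0.68 (SD, n = 2) and the T-labelled mean 7.99 ± 0.72 (n = 3). The difference of 0.93 (SE 0.54) did not pass (unadjusted p = 0.145 in limma), and the groups overlapped.

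LMO2, the bridging protein of the TAL1 and GATA complexes, was highest in CLL-1390 and GL-1, the same pair as LEF1. The brighter probe set read 12.87 in CLL-1390, 11.60 in GL-1, 8.37 in 17-71, 7.71 in CLGL-90 and 6.76 in CL-1. The other gave the same order of lines at 9.79, 7.98, 6.23, 5.66 and 5.54. GL-1 lay 3.23 above 17-71 by the first, a fold of 9.42, and 1.75 by the second. The second was under the highest control in 17-71, CLGL-90 and CL-1. The brighter LMO2 probe set had GL-1 and CLL-1390 at least log2 2 above the other 3 lines, as 0.166% of all tested probe sets did. The group difference of the brighter LMO2 probe set was 0.87 (SE 2.18).

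HHEX, a homeobox factor of stem cells and early B cells, was highest in CLL-1390 too, with intermediate levels in both B-labelled lines. Its probe set read 9.51 in CLL-1390, 7.97 in GL-1, 7.57 in 17-71, 5.94 in CL-1 and 5.69 in CLGL-90. The first 3 lines lay above the highest control of their arrays and the last 2 below it, with 1.63 between 17-71 and CL-1. The group difference was 0.73 (SE 1.28).

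In the reading by line, PAX5 and TCF7 were left aside. On every array the median lay above the highest control (6.87 against 6.39 in CL-1). Most probe sets thus pass that control, and passing it does not show that a line holds a lineage. In GL-1 the brightest probe sets of SPI1, EBF1, BCL11A, TCF4, LEF1, GATA3, LMO2 and HHEX all stood above the highest control. CLL-1390 had BCL11A, TCF4, LEF1, GATA3, LMO2 and HHEX above it, but not SPI1 or EBF1. 17-71 had SPI1, BCL11A, TCF4, GATA3, LMO2 and HHEX above it, with LEF1 at 4.94 and the 2 more variable EBF1 probe sets at 4.16 and 4.05. CL-1 had EBF1, BCL11A, TCF4, GATA3 and LMO2 above the highest control, EBF1 only just (6.41 against 6.39). This line combined the highest BCL11A with TCF4 at 10.71 and with the lowest GATA3 and LMO2 of the 5 lines. In CLGL-90 the brightest probe sets of SPI1, EBF1, BCL11A, TCF4, LEF1 and HHEX were all under the highest control, and those of GATA3 and LMO2 above it. For every line these readings go by the brightest probe set. The dimmer LMO2 probe set was above the highest control in GL-1 and CLL-1390 only, and the dimmer BCL11A probe sets in CL-1 only. Of the dimmer EBF1 probe sets, the second was above it in GL-1 only and the third in no line.

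Genes related to the factors were taken from 9 lists (128 genes, 104 with a probe set, 100 tested). Besides partners and targets, the lists hold phagocyte genes and other B-lineage, T-lineage and myeloid transcription factors. In limma over all genes 1 of the 100 passed, LYZ, the lysozyme gene, where 0.00706% of all genes did (1 of 14164). Among 20 tested PU.1 targets and phagocyte genes, 10 had both B-labelled values above all T-labelled values (6.12% of all genes had) and 0 the reverse (9.26%), with a median difference of 1.72 beside -0.03 over all genes. LYZ read 12.39 in 17-71 and 12.01 in GL-1 against 3.28 to 4.02, and differed by 8.51 (SE 0.29, adjusted p = 0.0228 in limma), a call lost on leaving out any 1 of the 5 lines or setting CLGL-90 apart, where 0 genes passed (474 to 767 at an unadjusted p under 0.05). FCER1G, an Fc receptor chain (11.09 and 10.09 against 5.26 to 5.41), and AIF1, a macrophage gene (11.46 and 11.76 against 5.86 to 6.76), had the same split as SPI1 without passing. BTK, a kinase of B and myeloid cells and a PU.1 target, departed from SPI1: it read 11.52, 11.46 and 11.23 in 17-71, GL-1 and CLL-1390, and 3.93 and 4.68 in CL-1 and CLGL-90. CSF1R (6.53 to 6.72), CD14 and CSF2RB varied by 0.39 or less over the lines, so these probe sets tell nothing of those genes. The list was put together with earlier results on LYZ, FCER1G and AIF1 in these lines known, so its count is no independent evidence of a direction.

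Genes that EBF1 and PAX5 switch on were highest in different lines. Of 8 tested, 0 passed in limma (median difference 0.10), and without overlap 1 was higher in the B-labelled lines (FCRLA; 6.12% of all genes) and 1 lower (MS4A1; 9.26%). FCRLA ranged over only 0.33, and MS4A1 read 5.72 and 5.83 in the B-labelled lines against 5.86 to 6.79. CD79A was highest in GL-1 (7.83 against 5.15 to 5.80), as EBF1 was. CD40 (9.17) and BANK1 (8.95) were high in 17-71 alone, and BLNK in CLGL-90 (9.90) and 17-71 (8.12) by 1 probe set, where the other ranged over 0.75. Among 9 other tested B-lineage factors 0 passed (median 0.05). Without overlap, 1 of these 9 was higher in the B-labelled lines, MEF2C (6.12% of all genes), and 0 in the T-labelled lines (9.26%). MEF2C, a factor of B and myeloid cells, read 10.31 in 17-71, 10.07 in GL-1, 8.71 in CL-1, 8.77 in CLL-1390 and 6.68 in CLGL-90, and so like TCF4 was lowest in CLGL-90; 1 dim probe set of MEF2C (3.28 to 3.74) did not show this. BCL6, a germinal centre repressor, was highest in 17-71 (10.35). FOXO1 (10.56) and PRDM1 (10.48) were highest in CL-1, as BCL11A was. Unlike BCL11A, which was lowest in CLGL-90, both were second highest there (9.64 and 8.88).

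Some LMO2 partners and progenitor factors were, like LMO2 and LEF1, highest in GL-1 and CLL-1390. Of the 15 tested, 0 passed between the label groups in limma (median -0.06). Without overlap, 1 was higher in the T-labelled lines, GATA2 (9.26% of all genes), and 0 in the B-labelled lines (6.12%). NFE2, a factor of erythroid and platelet genes, read 8.74 (GL-1) and 8.87 (CLL-1390), with 5.10 to 5.55 elsewhere, and GFI1B, a repressor of the same lineages, 9.42 and 11.49 against 6.45 to 7.34. ERG (7.98 and 7.34 against 5.09 to 5.58) and MEIS1 (8.74 and 8.17 against 6.84 to 7.02), stem-cell factors chosen after their values were seen, split the same way. MYB was high in CL-1 as well (12.01, with 11.89 in GL-1 and 11.23 in CLL-1390). Other genes of the list did not split this way: HOXA9, HLF and MECOM were highest in CLGL-90 and FLI1 in CL-1, with ranges of 0.39 to 0.67. TAL1 (highest value 6.50) and GATA2 (5.24 to 6.18) lay under the highest control in every line, and LDB1, the adaptor that LMO2 binds, was even at 8.58 to 9.04.

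Several T-lineage genes on which TCF7, LEF1 and GATA3 act were highest in CLGL-90. In limma 0 of the 14 tested passed (median -0.85), and 10 of the 14 ranged over log2 2 and reached log2 8 (13.2% of all genes did). Of those 10, 6 were highest in CLGL-90 (15.4% of all genes of that range and level were), where LEF1 was at background. Of the rest, 3 were highest in CL-1 (CD28, CCR7 and CD247) and 1 in 17-71 (IL7R). Without overlap, IL7R was higher in the B-labelled lines (9.70 and 8.05 against 5.96 to 6.72) and CD247 in the T-labelled lines. That is 1 of 14 each way (6.12% and 9.26% of all genes). This list too was chosen with earlier results known, so its counts are no independent evidence. CD3D read 13.51 there, 10.89 in CLL-1390, 9.78 in GL-1, and 5.14 and 5.44 in 17-71 and CL-1. CD3G read 12.69, 8.86, 10.01, 5.75 and 5.34 in the same order. LCK, the proximal T-cell kinase, was lowest in 17-71 (5.58), and CD247 was high in CL-1 and CLGL-90 (11.16 and 10.64). Among 10 other tested T-lineage factors 0 passed (median -0.05). Without overlap, 2 of these 10 were higher in the T-labelled lines, ZBTB16 and TBX21 (9.26% of all genes), and 0 in the B-labelled lines (6.12%). TBX21 read 8.59 in CL-1, 8.46 in CLGL-90 and 6.42 in CLL-1390, and 5.79 and 5.92 in 17-71 and GL-1. TOX, a factor of thymic development, had its 2 highest values in the same lines as LEF1, at 11.72 in CLL-1390 and 10.63 in GL-1 against 4.13 to 7.92. SATB1 and ZBTB16 were highest in CLL-1390 (9.48 and 11.24; the other ZBTB16 probe set ranged over 0.29), and FOXP3, the regulatory T-cell factor, was high in CLGL-90 alone (9.49).

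The remaining lists were mostly even across the lines. Of 15 tested TCF/LEF relatives, co-factors and Wnt response genes, 0 passed (median -0.01) and 1 ranged over log2 2 while reaching log2 8. That was TLE1, a corepressor of LEF1, at 8.77 in 17-71 and 8.28 in CL-1 against 4.49 to 4.76 in the other 3 lines, which are both lines with high LEF1 and CLGL-90, where LEF1 was at background; its other probe set ranged over 0.88. Without overlap, 2 of the 15 were higher in the T-labelled lines, SP5 and RNF43 (9.26% of all genes), and 0 in the B-labelled lines (6.12%). SP5 and RNF43 ranged over only 0.35 and 0.66. CTNNB1, beta-catenin, read 11.40 to 12.34, and the Wnt target AXIN2 7.74 to 8.14. Of 4 tested E proteins and Id inhibitors 0 passed (median -0.02). ID1, which blocks E proteins such as TCF4, was highest in 17-71 (8.41) and lowest in GL-1 (5.38). Of 5 tested myeloid factors 0 passed (median 0.01), and GFI1 was highest in CLGL-90 (9.93).

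**Figure D3:**
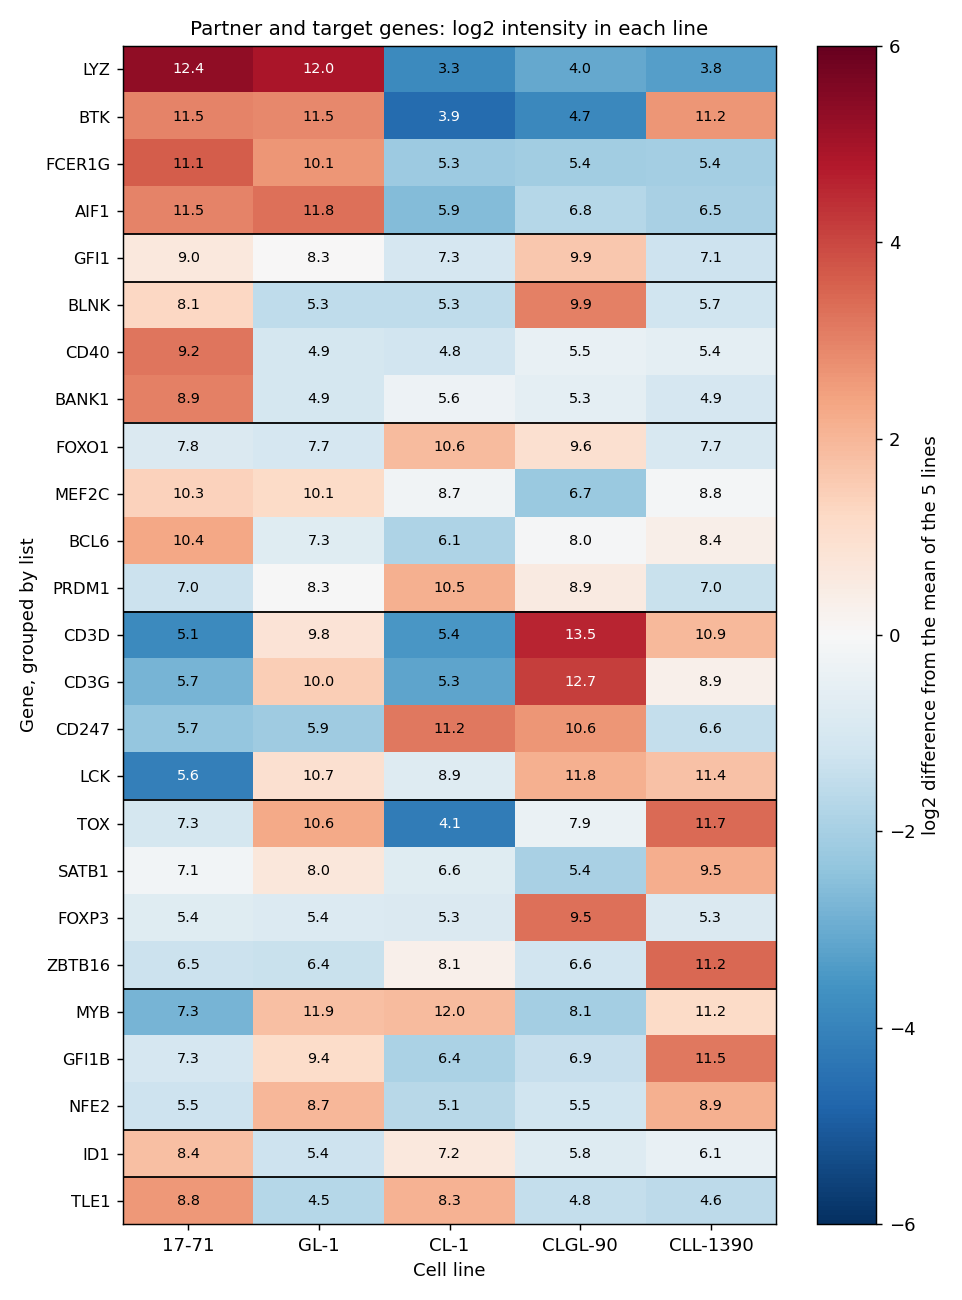
Log2 intensity (numbers in the cells) of the named list genes (partners, targets and other lineage genes) in the 5 lines, grouped by list with black lines between lists. Colour gives the log2 difference from the mean of the gene over the 5 lines. LYZ, FCER1G and AIF1 are high in 17-71 and GL-1, whereas TOX, GFI1B and NFE2 are high in GL-1 and CLL-1390.

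For the 7 factors that ranged over log2 2 by their brightest probe set, the profile over the 5 lines was set against 2065 other genes of at least that range, by the root mean square difference after centring each on its own mean. Over 5 points such likeness is a description only. SPI1 was nearest to UPP1, uridine phosphorylase (0.036), then RNLS (0.269) and S100A8, a calprotectin subunit (0.277). LEF1 was nearest to NRN1 (0.413) and LMO2 (0.472), then DACH1 (0.473). LMO2 was nearest to TIMP2 (0.239), GLUL (0.396) and NRN1 (0.413). BCL11A was nearest to CCDC181 (0.250), ATXN7L1 (0.386) and BCL9, a beta-catenin co-factor (0.391). HHEX was nearest to FBH1 (0.340), TES (0.351) and SATB1 (0.376), and GATA3 to NSMAF (0.120), KCTD3 (0.161) and ADGRB2 (0.187). TCF4 had no close neighbour, the nearest being PECR at 0.811, FNBP1L at 0.822 and CTPS2 at 0.929.

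**Figure D4:**
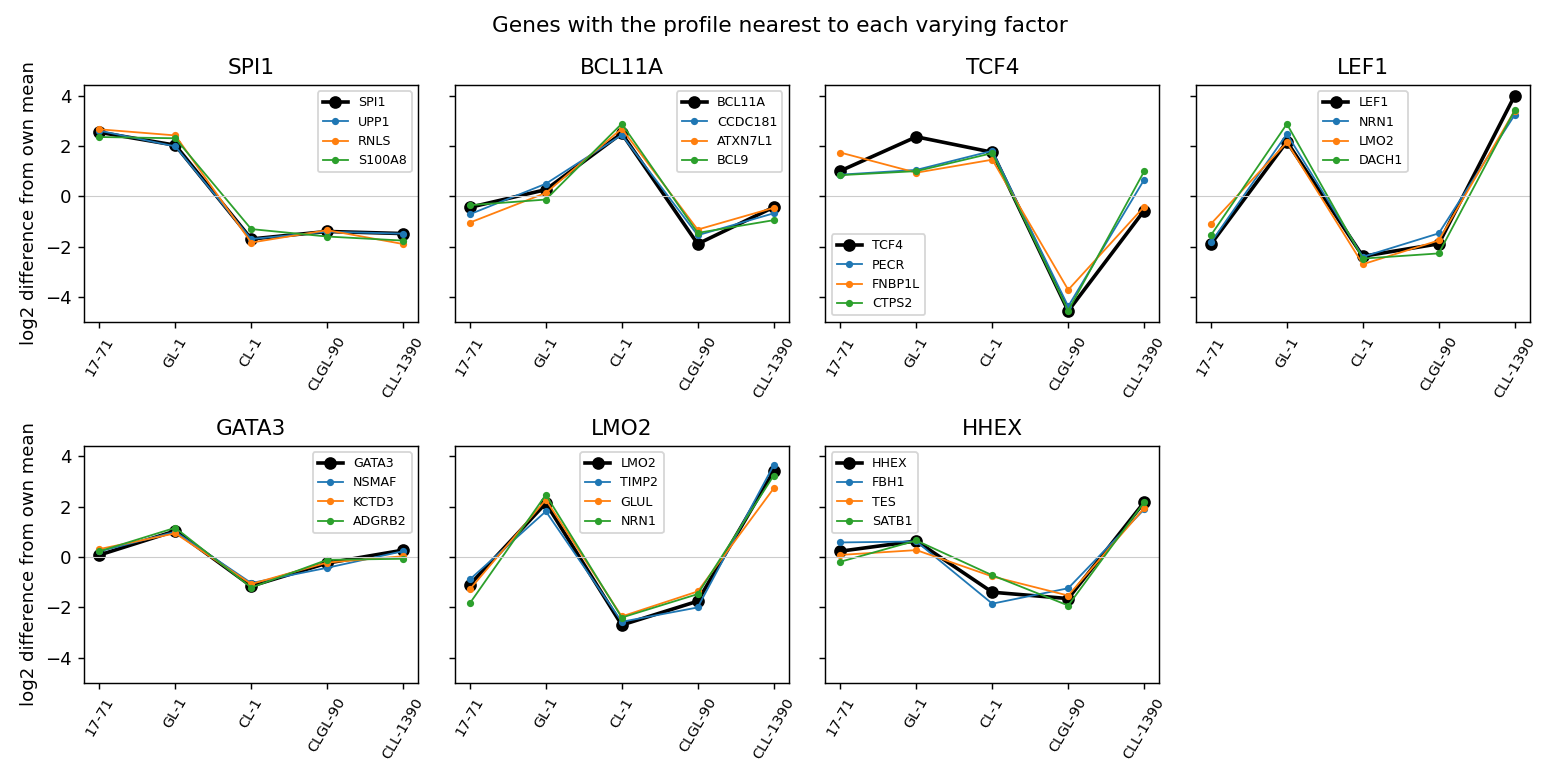
Log2 intensity minus the mean of the gene over the 5 lines (vertical axis) for each varying factor (black) and the 3 genes nearest to it (colours), by line (horizontal axis). UPP1 overlies SPI1 at a root mean square difference of 0.036, while the genes nearest to TCF4 share its low value in CLGL-90 and differ in GL-1.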

How the data were processed

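Total RNA (RIN above 9, biotin label, per the labels) of 5 lines was hybridised to 1 array each. The deposited table holds a log2 intensity for each probe set, computed by the authors with GCRMA as the submitters' processing notes state; which version, scanner settings or filters they used is not stated there. GCRMA corrects background by probe sequence, so differences between low values depend on it. Array medians ran from 6.87 to 7.00.

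The table has 43035 rows, 111 of them Affymetrix controls that were dropped; 29254 of the rest had 1 gene symbol, 439 several and 13231 none here. Gene IDs of 9 of the 10 factors were found in the reference table of assembly UU_Cfam_GSD_1.0; that of LMO2 was matched by symbol. No sequences or positions were used.

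All probe sets with values of log2 5 or above on 2 or more arrays were compared between B-labelled and T-labelled lines with limma 3.58.1 in R 4.3.3, two-sided, Benjamini-Hochberg threshold 0.05, over all probe sets and, by the probe set of highest mean, over genes. The fit was tested on simulated data. P-values set the group difference against the spread between lines, and having 5 arrays limits precision. From each list, genes past the test and up to 4 with the widest range of at least log2 2 that reached log2 8 were named; other partner and marker genes were named after their values were seen. Members, lists and rules were chosen with earlier results of these data known. The filter was also dropped or raised to log2 7, values were quantile normalized once more, centred by array or floored at log2 4, the prior was made robust with an intensity trend, CLGL-90 was set apart from both groups, genes were summarised by mean or variance, and each line was left out in turn.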

Additional observations from a re-analysis of the deposited data

How the results depend on the processing

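Signal over background and the number of lines, with 1 array each, both limit these results. SPI1, LEF1 and TCF4 were compared with lines at the level of the non-dog controls, and for PAX5 and TCF7 no line stood out clearly. The 5 called probe sets became 3 with no filter or centred arrays, 14 with the filter at log2 7, 15 with an intensity trend and robust prior together and 0 in limma once CLGL-90 formed its own group (1607 unadjusted) or without any 1 line (0 to 0; 1186 to 2108 unadjusted). The 1 called gene became 9 with the filter at log2 7, 8 after quantile normalization again or centring, 10 with the trend and robust prior, 11 by the probe set of highest variance, and 0 in limma once CLGL-90 formed its own group (622 unadjusted) or without any 1 line (0 to 0; 474 to 767 unadjusted). The 2 probe sets of the factors without overlap between groups became 4 with no filter, 1 at the filter of log2 7 and 2 to 7 without 1 line, where fewer lines leave less room for overlap. SPI1 kept its direction throughout. Adjusted over genes it passed in limma at the filter of log2 7 (adjusted p = 0.0377), after quantile normalization (0.0492) and centring (0.0467), with the trend and robust prior (0.0328) and by the probe set of highest variance (0.0449). Over probe sets it passed with the trend and robust prior (0.0445).

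Of 213 recomputed differences of the tested probe sets, 24 turned sign, none of them past the threshold. Once CLGL-90 formed its own group, differences were -0.67 for the brighter LEF1 probe set, -0.56 for the dimmer LMO2, 0.0053 for the third PAX5 and 0.0441 for the brighter TCF7. Without 1 line, the differences ran from -0.129 to 1.35 (EBF1), -0.0163 to 0.176, -0.29 to 0.232 and -0.145 to 0.0053 (PAX5, first 3 probe sets), and -1.12 to 1.08 and -2.50 to 0.26 (BCL11A, first 2). They ran from -0.919 to 2.26 and -0.902 to 1.48 (LEF1, without 17-71, CL-1 or CLGL-90), -0.176 to 0.0913 and -0.345 to 0.0594 (TCF7), and -0.745 to 2.75 and -0.771 to 1.50 (LMO2). Without GL-1 or CLL-1390, LEF1 was under the filter and not fitted, and its plain differences of means were -1.81 and 2.27 (brighter) and -1.59 and 1.52. The third BCL11A probe set was likewise not fitted without 17-71 (-0.98) or CL-1 (0.53). The cause was not tested. No paired analysis was possible, because each array is a different line and the labels pair none of them.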
